A study of Danio rerio with 12 samples.

Results

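miR-203a, miR-203b and miR-205 (mir-203a, mir-203b and mir-205 in the count tables) are microRNAs (miRNAs) of the skin, and both arms of each hairpin, the major arm and the minor arm marked with a star, were followed through 12 small RNA libraries of whole zebrafish embryos. They were chosen by name: every row of the count tables that carries 1 of these 3 names was taken, which gave 6 arms among 412 miRNA features. Each arm had a single row and counts in all 12 libraries. Embryos of the TL wild type strain had received either TCDD, the dioxin best known for binding the aryl hydrocarbon receptor, or the solvent DMSO, and were sampled 36 or 60 hours post fertilisation (hpf). The 4 groups (36 hpf DMSO, 36 hpf TCDD, 60 hpf DMSO and 60 hpf TCDD) held 3 libraries each. The sources used here give neither the dose and length of exposure nor whether libraries of a group came from separate clutches, so a p-value here stands for the spread among libraries, which may be technical.

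A miRNA is cut from a hairpin precursor, and the strand that is loaded into Argonaute (the major arm) guides the repression of messenger RNAs, while the other strand (the minor arm) is mostly lost. In mouse skin miR-203 is known to restrain p63, the transcription factor that keeps epidermal progenitors dividing, as cells leave the basal layer, and in the regenerating zebrafish fin it is known to repress Lef1, a transcription factor of the Wnt pathway. miR-205 is known from the progenitor layers of stratified epithelia and, together with the miR-200 family, represses the transcription factors ZEB1 and ZEB2 in mammalian cells. Human skin responds to dioxin with chloracne. In the RefSeq gene table of zebrafish (assembly GRCz12tu) the gene of miR-203a lies between the protein-coding genes aspg and kif26ab, that of miR-203b next to tmem179aa, and that of miR-205 within the span of plxna2, with cd34 as its nearest protein-coding neighbour on one side.

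Depth was 456735 to 4175776 miRNA counts per library, a 9.14-fold range, and it moved with time: 456735 to 3536651 counts at 36 hpf and 1990507 to 4175776 at 60 hpf. In whole embryos fewer cells of a type and less RNA per cell cannot be told apart. The summed level of 12 arms of the epithelial miR-200 family ran from 5153 to 18455 CPM (counts scaled to library size), that of 10 muscle arms from 40144 to 83746 CPM, and that of 6 neural arms from 1840 to 15599 CPM, so other tissues contributed to every library. Of the 34 arms in these, the erythroid and the liver lists, only mir-144 (erythroid) and mir-429b* (epithelial) were at 0 in any library, each in 1.

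The major arms were among the most abundant miRNAs. Taken over the 12 libraries, miR-203b ranked 2nd of 412 features by mean level, miR-205 ranked 5th and miR-203a ranked 6th. Within single libraries miR-203b ranked 1st to 7th and was first in 4 libraries, namely all 3 of 60 hpf TCDD and replicate 3 of 36 hpf DMSO. miR-203a ranked 4th to 14th, and miR-205 ranked 2nd to 21st, with the lowest place in replicate 2 of 36 hpf DMSO. The minor arms ranked far lower, 41st to 74th for miR-203b*, 81st to 132nd for miR-203a* and 166th to 231st for miR-205*. Mature miRNAs are of nearly one length, so levels were not divided by length; how well the library kit captures each sequence was not tested.

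Shares are of all miRNA counts, with the copies of 1 mature name and arm counted once. The 6 arms together took 13.1%, 12.4% and 21.3% in replicates 1, 2 and 3 of 36 hpf DMSO. They took 17.5%, 13.5% and 10.7% in those of 36 hpf TCDD. At 60 hpf they took 13.9%, 13.0% and 10.2% in DMSO and 11.8%, 15.6% and 15.4% in TCDD. The ranges of all 4 groups overlapped, with group means of 15.6% ± 4.97, 13.9% ± 3.41, 12.4% ± 1.92 and 14.3% ± 2.16 (SD, n = 3 each, in the same order). miR-203b held the largest part of it, with 7.02% ± 1.55 in 36 hpf DMSO, 5.74% ± 0.879 in 36 hpf TCDD, 5.70% ± 1.78 in 60 hpf DMSO and 6.27% ± 0.965 in 60 hpf TCDD. miR-203a took 4.05% ± 0.862, 3.51% ± 0.780, 2.94% ± 0.785 and 3.43% ± 0.600 of the counts in these groups. miR-205 took 4.02% ± 2.95, 4.19% ± 1.80, 3.34% ± 1.15 and 4.14% ± 0.694.

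**Figure D1:**
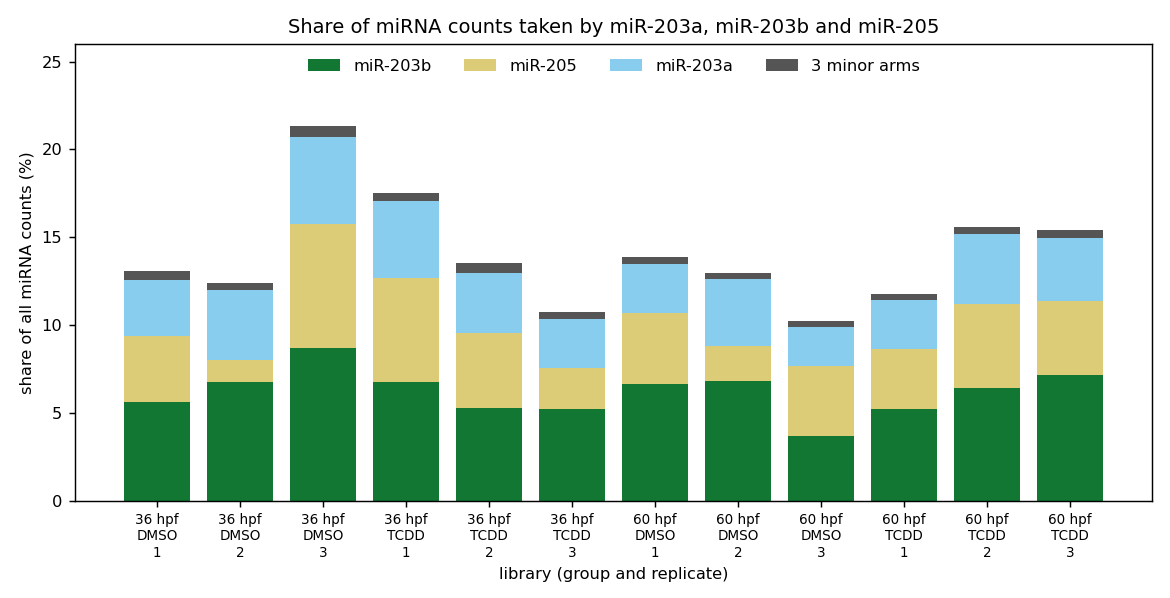
Share of all miRNA counts (%, vertical axis) taken by the major arms of miR-203b, miR-205 and miR-203a and by the 3 minor arms together, stacked for each of the 12 libraries (horizontal axis, group and replicate). The total runs from 10.2% (replicate 3 of 60 hpf DMSO) to 21.3% (replicate 3 of 36 hpf DMSO), and the miR-205 layer is thinnest in replicate 2 of 36 hpf DMSO.

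For the levels, counts were scaled by TMM factors, which set the libraries to each other by the bulk of the miRNAs, and are given as CPM. The factors differed between the groups, and a larger factor lowers the CPM of a library. They ran from 0.843 to 0.995 at 36 hpf, from 0.960 to 1.04 in 60 hpf DMSO and from 1.12 to 1.27 in 60 hpf TCDD. miR-203b stood at 60240, 75944 and 95580 CPM in replicates 1 to 3 of 36 hpf DMSO, and at 67928, 62277 and 56941 CPM in those of 36 hpf TCDD. At 60 hpf it stood at 65885, 65702 and 38054 CPM in DMSO and at 46516, 53248 and 56296 CPM in TCDD. The TCDD libraries lay within the range of the DMSO libraries at 60 hpf, and overlapped with them at 36 hpf, where replicates 2 and 3 of DMSO were above all of TCDD. Group means were 77254 ± 17706, 62382 ± 5494, 56547 ± 16016 and 52020 ± 5004 CPM (SD, n = 3).

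miR-203a, its paralog, stood at 34567, 44701 and 54381 CPM in 36 hpf DMSO and at 43774, 40013 and 30694 CPM in 36 hpf TCDD. The 60 hpf libraries were at 28028, 36412 and 23123 CPM in DMSO and at 24685, 32699 and 28128 CPM in TCDD. DMSO and TCDD overlapped at both times. miR-203a and miR-203b are closely alike in sequence and no source used here says how a read that matches both was counted, so reads may be split between them.

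miR-205 was the most variable of the major arms. It stood at 40259, 13558 and 78188 CPM in replicates 1 to 3 of 36 hpf DMSO and at 59508, 51286 and 25380 CPM in 36 hpf TCDD. At 60 hpf it stood at 39774, 19372 and 41582 CPM in DMSO and at 30242, 39508 and 33556 CPM in TCDD. Replicate 2 was the lowest DMSO library at both times, and the 3 DMSO libraries at 36 hpf enclosed all 3 TCDD libraries. The highest library was 5.77 times the lowest for miR-205, against 2.51 times for miR-203b and 2.35 times for miR-203a. The SD between libraries of a group was 0.79 on the log2 scale for miR-205, 0.30 for miR-203b and 0.29 for miR-203a, where the median of the 223 miRNA features with a mean of 100 CPM or more was 0.54. Of those features 69.4% had a smaller SD than miR-205, 14.9% a smaller one than miR-203b and 14.4% a smaller one than miR-203a.

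On the TMM scale the minor arms of the miR-203 pair separated by time. miR-203a* stood at 1084, 1085 and 1280 CPM in 36 hpf DMSO, at 1004, 1517 and 795 CPM in 36 hpf TCDD, at 710, 638 and 643 CPM in 60 hpf DMSO and at 549, 682 and 682 CPM in 60 hpf TCDD. On this scale all 6 libraries of 60 hpf were below all 6 of 36 hpf. By share of counts they overlapped: replicate 3 of 36 hpf TCDD had 0.0729%, below replicates 2 and 3 of 60 hpf TCDD with 0.0824% and 0.0865%. miR-203b* stood at 4141, 3791 and 5337 CPM in 36 hpf DMSO and at 3699, 5387 and 3079 CPM in 36 hpf TCDD, and lay between 2526 and 3127 CPM in the 6 libraries of 60 hpf, so that 36 and 60 hpf did not overlap within either treatment on the TMM scale. Its shares overlapped in TCDD embryos, with 0.282% to 0.454% at 36 hpf and 0.284% to 0.380% at 60 hpf. miR-205* was rare, with 58.1 to 226 CPM, and rested on as few as 28 counts in replicate 3 and 36 counts in replicate 2 of 36 hpf TCDD.

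**Figure D2:**
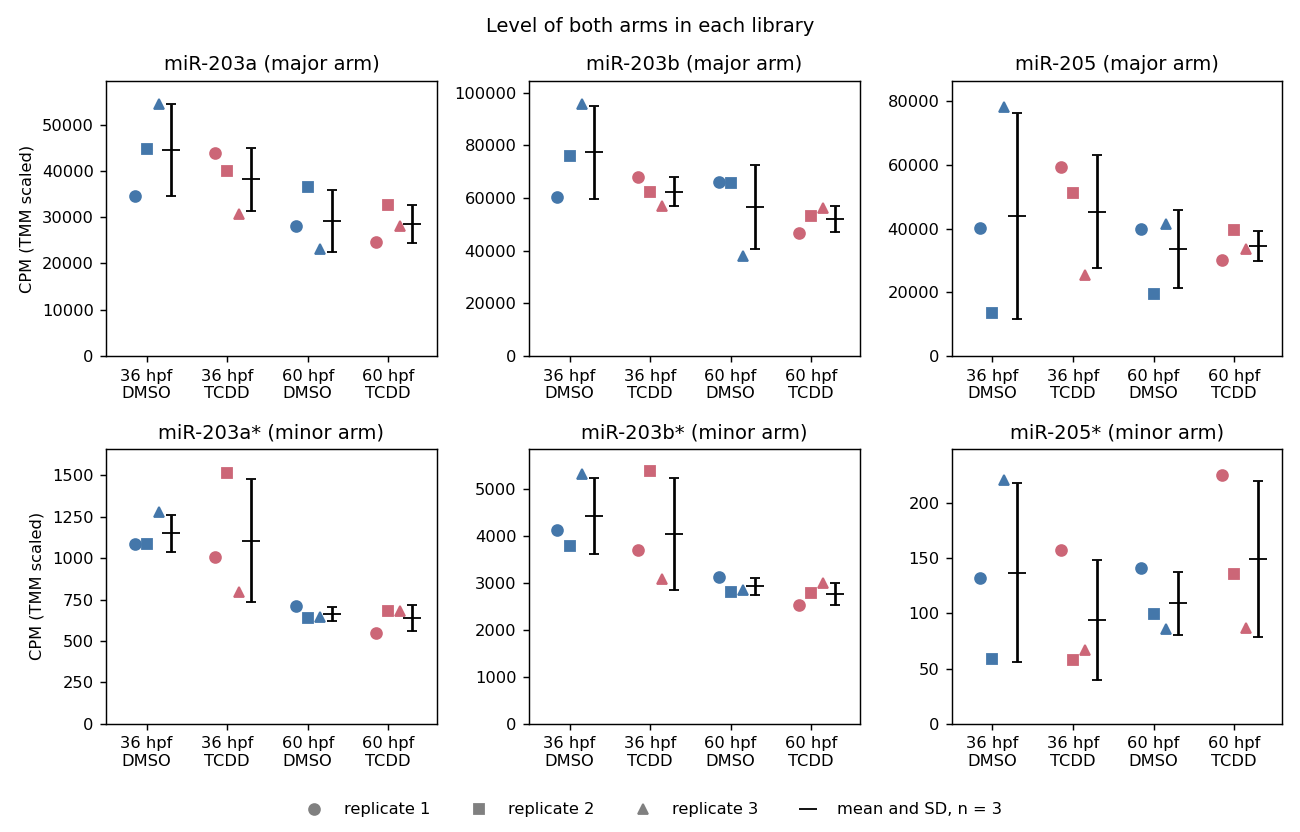
Level of each arm in CPM (TMM scaled, vertical axes starting at 0, 1 panel per arm) in the 4 groups, with 1 symbol per library and the mean and SD of 3 libraries as bars. miR-203a* lies at 795 to 1517 CPM in every 36 hpf library and at 549 to 710 CPM in every 60 hpf library, while miR-205 in 36 hpf DMSO spans 13558 to 78188 CPM.

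The comparison of TCDD with DMSO, which the study was made for, called none of the 6 arms at either time. At 36 hpf edgeR's quasi-likelihood test called 0 of 370 tested miRNAs (0%; 10 at an unadjusted p under 0.05, 0 by DESeq2 and 0 by limma-voom), and 0 of the 6 arms had an unadjusted p under 0.05. The log2 fold change at 36 hpf was -0.31 (SE 0.27, 95% interval -0.90 to 0.28) for miR-203b, -0.22 (SE 0.27, -0.82 to 0.37) for miR-203a and 0.04 (SE 0.56, -1.18 to 1.27) for miR-205. The minor arms had values of -0.13 for miR-203b*, -0.06 for miR-203a* and -0.53 (SE 0.56) for miR-205*, and the adjusted p from edgeR was 0.999 for each of the 6 arms. TCDD and DMSO libraries overlapped for all 6 arms at both times; over all miRNAs, 5.95% at 36 hpf and 22.2% at 60 hpf were free of overlap. The miR-205 value rested on single libraries and moved in both directions. It ran from -0.39 to 0.82 over the 12 fits that each left out 1 library. It was -0.39 without replicate 2 of DMSO and -0.20 without replicate 1 of TCDD.

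At 60 hpf edgeR called 1 of 370 miRNAs (0.27%), no member among them, while DESeq2 called 11 and limma-voom 1. The edgeR count was 0 without any one of the 60 hpf DMSO libraries or of replicates 1 and 2 of 60 hpf TCDD. Of the members, 0 of the 6 arms had an unadjusted p under 0.05 with edgeR, DESeq2 or limma-voom. With edgeR 26 of all 370 miRNAs did. The log2 fold change was -0.12 (SE 0.27, 95% interval -0.71 to 0.47) for miR-203b, -0.03 (SE 0.27, -0.63 to 0.56) for miR-203a and 0.04 (SE 0.56, -1.19 to 1.27) for miR-205. These intervals leave room for a change of miR-205 of more than 1 log2 unit in either direction, and for less in the miR-203 pair. The direction for the 4 miR-203 arms at 60 hpf depended on the scaling: with upper quartile or total count scaling, which move the median of all miRNAs to 0.30, miR-203a was at 0.24 and 0.22 and miR-203b at 0.14 and 0.14, below that median. The difference between the TCDD effects of the 2 times was 0.19 for miR-203a, 0.19 for miR-203b, -0.01 for miR-205 and 0.99 (SE 0.79) for miR-205*, with an adjusted p of 1 from edgeR for each. Averaged over both times, a comparison added after the data were seen, the effect of TCDD was -0.13 for miR-203a, -0.21 for miR-203b and 0.04 for miR-205, with an edgeR adjusted p of 0.950 or more for each arm, and 1 of 370 miRNAs was called (0.27%). The test of the difference called 0 of 370 miRNAs (0%; 16 at an unadjusted p under 0.05, 4 by DESeq2 and 0 by limma-voom).

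**Figure D3:**
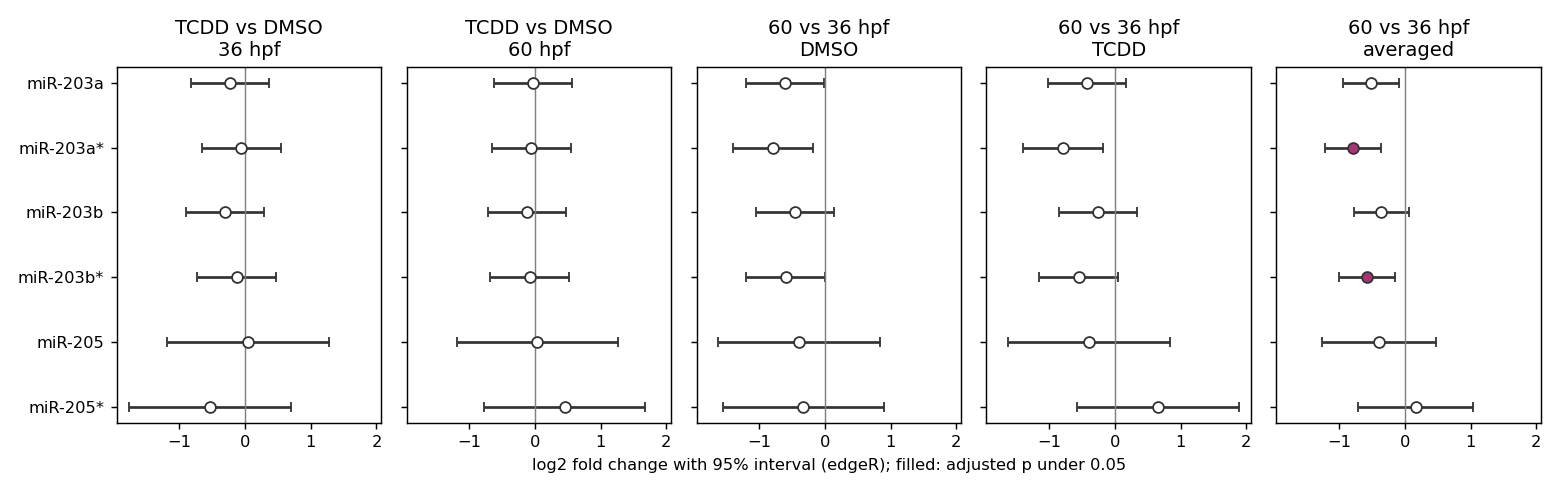
Log2 fold change of each arm (horizontal axes) with its 95% interval from the edgeR fit, for TCDD against DMSO at 36 and 60 hpf and for 60 against 36 hpf in DMSO, in TCDD and averaged over both. Filled points mark an adjusted p under 0.05, which only miR-203a* (-0.79) and miR-203b* (-0.57) reach, in the averaged comparison; the intervals of miR-205 and miR-205* are the widest.

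With TMM scaling the fitted level at 60 hpf was lower than at 36 hpf for every miR-203 arm in both treatments, and no arm was called within either treatment. In DMSO embryos the log2 fold change of 60 over 36 hpf was -0.79 (SE 0.28, edgeR adjusted p = 0.0696) for miR-203a*, -0.61 (SE 0.27, adjusted p = 0.148) for miR-203a, -0.59 (adjusted p = 0.165) for miR-203b* and -0.45 (adjusted p = 0.266) for miR-203b. At an unadjusted p under 0.05 edgeR had 115 of 370 miRNAs here, among them 2 of the 6 arms. It called 66 of 370 (17.8%) and 0 of the 6 arms. limma-voom also called 0 of them, and DESeq2 called 3: miR-203a* (adjusted p = 0.00187), miR-203b* (adjusted p = 0.0138) and miR-203a (adjusted p = 0.0361). DESeq2 called more in general, 111 of 370 (30%). Total count scaling, which moves the median of all miRNAs to 0.17, gave values nearer to 0 here, -0.65 for miR-203a*, -0.46 for miR-203a, -0.46 for miR-203b* and -0.30 for miR-203b.

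In TCDD embryos the log2 fold change was -0.79 (SE 0.28, edgeR adjusted p = 0.0622) for miR-203a*, -0.55 (adjusted p = 0.172) for miR-203b*, -0.42 (adjusted p = 0.296) for miR-203a and -0.26 (adjusted p = 0.528) for miR-203b. At an unadjusted p under 0.05 edgeR had 131 of 370 miRNAs, among them 1 of the 6 arms. It called 75 of 370 (20.3%) and 0 of the 6 arms. limma-voom called 0 and DESeq2 called 2, miR-203a* (adjusted p = 0.00139) and miR-203b* (adjusted p = 0.0176), among 118 of 370 in all (31.9%). On the TMM scale libraries of 36 and 60 hpf did not overlap for 2 of the 6 arms in DMSO (miR-203a* and miR-203b*) and for 3 of 6 in TCDD (these and miR-203b), each lower at 60 hpf. Over all miRNAs tested, 17.8% in DMSO and 17.3% in TCDD were lower at 60 hpf without overlap. With total count scaling, which moves the median of all miRNAs in TCDD embryos to 0.49, the values were -0.38 for miR-203a*, -0.14 for miR-203b*, -0.03 for miR-203a and 0.13 for miR-203b. The miR-203b share of counts was likewise 5.74% at 36 hpf and 6.27% at 60 hpf.

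Averaged over both treatments, likewise added after the data were seen, miR-203a* fell by 0.79 on the log2 scale (SE 0.19, edgeR adjusted p = 0.00922, lower in 6 of 6 libraries of 60 hpf than in any of 36 hpf on the TMM scale, though not by share of counts). miR-203b* fell by 0.57 (SE 0.19, edgeR adjusted p = 0.0403). The major arms had values of -0.52 (adjusted p = 0.0570) for miR-203a and -0.36 (adjusted p = 0.161) for miR-203b in the edgeR fit. edgeR called 128 of 370 miRNAs here (34.6%), a share in either direction to which 2 of 6 arms is close. Both called arms were lower at 60 hpf, and as lower 12.7% of the 370 were called. Whether the members exceed that share was not tested. Levels of these 2 arms ran together over the libraries (Pearson correlation 0.974), so they are hardly 2 separate calls. limma-voom called 3 of the 6 arms, miR-203a (adjusted p = 0.0453) besides these, among 131 of 370 (35.4%). DESeq2 called 4 of 6, all miR-203 arms, with miR-203a at an adjusted p of 0.00443 and miR-203b at 0.0499, among 182 of 370 (49.2%). A lower level without overlap of 6 against 6 libraries, as for miR-203a*, was found for 6.22% of all miRNAs. The miR-203a* call held without any single library, with an adjusted p of 0.00345 to 0.0269, and was lost with total count scaling (-0.52, adjusted p = 0.0517). The miR-203b* call was lost without 8 of the 12 libraries taken singly, where its adjusted p over all 12 ran from 0.0160 to 0.0897, and with total count scaling (-0.30, adjusted p = 0.252). It was also lost with no filter (adjusted p = 0.0523), without both DMSO libraries numbered 2 (0.103), and with the replicate number as a block over all libraries (0.0682) or among TCDD libraries (0.0528). Total count scaling moves the median of all miRNAs to 0.38 in this comparison.

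From 36 to 60 hpf miR-205 differed by -0.39 on the log2 scale in DMSO (SE 0.56, edgeR adjusted p = 0.691), by -0.40 in TCDD (SE 0.56, adjusted p = 0.691) and by -0.39 averaged over both (SE 0.39, adjusted p = 0.473). With total count scaling these were -0.27, -0.02 and -0.14. Neither treatment separated the 2 times for it. miR-205* was at -0.33 (adjusted p = 0.749) in DMSO and 0.66 (SE 0.56, adjusted p = 0.442) in TCDD. The summed neural list ran from 4245 to 6158 CPM in 36 hpf DMSO and from 8274 to 14036 CPM in 60 hpf DMSO. In TCDD it overlapped between the times, with 1840 to 5929 CPM at 36 hpf and 5526 to 15599 CPM at 60 hpf. In the averaged comparison edgeR called 4 of its 6 arms higher at 60 hpf, and 81 of all 370 miRNAs. Within DMSO 1 of the 6 arms was called higher, and within TCDD 2, against 43 and 48 of all 370 miRNAs. Of the other lists, 2 of 10 muscle arms and 1 of 4 erythroid arms were called lower in the averaged comparison. Of all 370 miRNAs 47 were called lower there. Of 2 liver arms 2 were called higher, and of 12 epithelial arms 0 were called in either direction. The part of any of these lists in the lower miR-203 levels was not tested, and neither was that of depth.

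The arm ratio, the count of the minor arm per 100 counts of the major arm in the same library, needs no scaling between libraries. It was highest for miR-203b, at 6.87, 4.99 and 5.58 in 36 hpf DMSO, 5.45, 8.65 and 5.41 in 36 hpf TCDD, 4.75, 4.28 and 7.48 in 60 hpf DMSO and 5.43, 5.25 and 5.33 in 60 hpf TCDD. Replicate 2 of 36 hpf TCDD and replicate 3 of 60 hpf DMSO were high, and the groups overlapped. miR-203a had 3.14, 2.43 and 2.35 minor counts per 100 in 36 hpf DMSO and 2.29, 3.79 and 2.59 in 36 hpf TCDD, then 2.53, 1.75 and 2.78 in 60 hpf DMSO and 2.22, 2.09 and 2.43 in 60 hpf TCDD. Its highest library was the same replicate 2 of 36 hpf TCDD. There the median deviation of the 172 hairpins tested, each from its own mean over libraries, was 0.21 on the log2 scale. Both miR-203 hairpins deviated by 0.61, and miR-205 deviated the other way, by -1.44, on 36 counts of miR-205*.

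miR-205 was the most one-sided of the 3 hairpins. Its ratio was 0.327, 0.431 and 0.282 per 100 in 36 hpf DMSO and 0.264, 0.113 and 0.263 in 36 hpf TCDD. All 3 TCDD libraries lay below all 3 DMSO libraries at 36 hpf, the lowest on 36 counts of miR-205*; as a share of both arms that library had 0.113% with a 95% Wilson interval of 0.0818% to 0.157%, which covers counting error only. At 60 hpf the ratio was 0.355, 0.515 and 0.207 in DMSO and 0.746, 0.344 and 0.258 in TCDD, which overlapped. Among the 172 hairpins the ratio of miR-205 stood at the 2.9th to 15.7th percentile of its library, that of miR-203a at the 26.2nd to 37.2nd and that of miR-203b at the 35.5th to 49.4th.

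**Figure D4:**
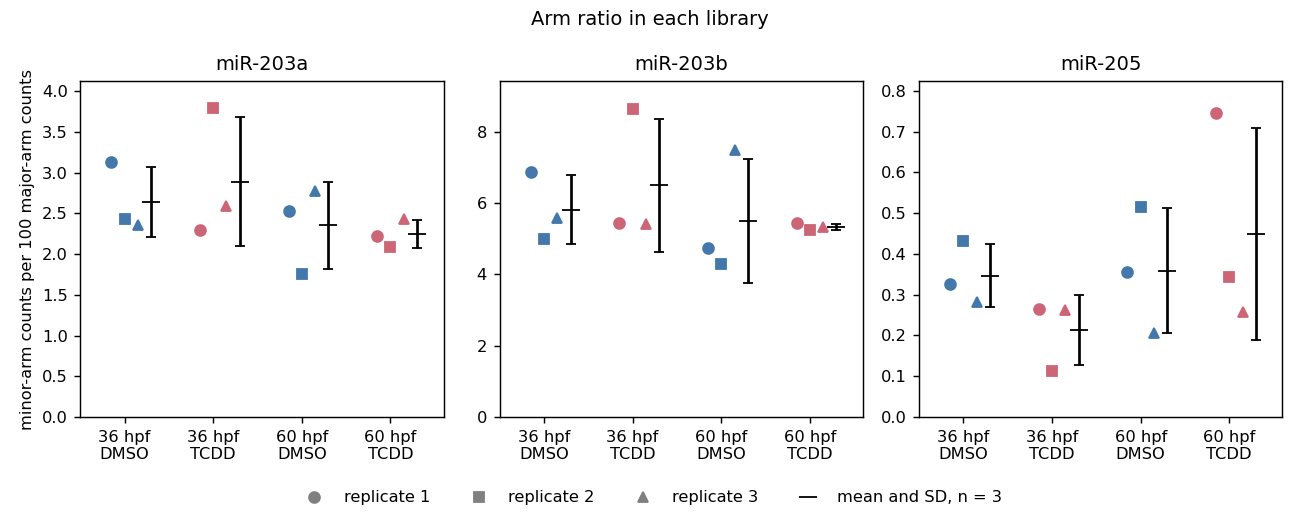
Counts of the minor arm per 100 counts of the major arm (vertical axes from 0, 1 panel per hairpin) in each library of the 4 groups, with the mean and SD of 3 libraries. miR-203b lies between 4.28 and 8.65 and miR-203a between 1.75 and 3.79, while miR-205 lies between 0.113 and 0.746, with its lowest library in 36 hpf TCDD and its highest in 60 hpf TCDD.

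No arm ratio of the 3 hairpins was called by limma in any comparison. At 36 hpf the log2 difference of TCDD from DMSO was -0.77 (SE 0.56, adjusted p = 0.966) for miR-205, 0.14 (SE 0.33) for miR-203b and 0.11 (SE 0.35) for miR-203a. The median of the 172 hairpins in this comparison was 0.19. limma called 0 of 172 hairpins there (0%; 6 at an unadjusted p under 0.05), and 2.91% of the hairpins had lower ratios in TCDD without overlap, as miR-205 did. At 60 hpf the differences were 0.27 (SE 0.56) for miR-205, -0.04 for miR-203a and -0.0008 for miR-203b, while the median of the 172 hairpins was 0.40 and limma called 1 of them (0.581%). From 36 to 60 hpf the ratio of miR-205 differed by 1.01 in TCDD (SE 0.56, adjusted p = 0.537) and by -0.03 in DMSO (SE 0.56), with 0 of 172 hairpins called in each (0%; 19 and 11 at an unadjusted p under 0.05). Both miR-203 ratios had values between -0.33 and -0.11 in these comparisons of time, with limma adjusted p of 0.847 or more. The median of the 172 hairpins was 0.06 in TCDD and -0.20 in DMSO. Averaged over both treatments limma called 3 of 172 hairpins for time (1.74%), and averaged over both times 1 for TCDD (0.581%), no member among them. The 2-sided exact permutation test of each hairpin's own ratio in these averaged comparisons gave p of 0.26 (miR-205), 0.16 (miR-203a) and 0.3 (miR-203b) for time and 0.535, 0.845 and 0.745 for TCDD, on 3 libraries a group.

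The miR-203 paralogs kept a narrow ratio to each other. The major arm of miR-203a was 0.574, 0.589 and 0.569 times that of miR-203b in 36 hpf DMSO, 0.644, 0.643 and 0.539 times in 36 hpf TCDD, 0.425, 0.554 and 0.608 times in 60 hpf DMSO and 0.531, 0.614 and 0.4996 times in 60 hpf TCDD. miR-203b exceeded miR-203a in all 12 libraries. The ratio of miR-203b to miR-205 ranged from 0.915 to 5.60, and replicate 3 of 60 hpf DMSO was the 1 library in which miR-205 exceeded miR-203b. For miR-203a over miR-203b the mean log2 difference was -0.15 from 36 to 60 hpf and 0.07 for TCDD. The 2-sided exact permutation test gave p = 0.13 for time (adjusted over 4 tests p = 0.52) and p = 0.505 for TCDD (adjusted p = 0.673). For miR-203b over miR-205 the mean log2 difference was -0.38 for TCDD (exact permutation p = 0.46, adjusted p = 0.673) and -0.14 for time (p = 0.74, adjusted p = 0.74). The smallest p that the 400 relabellings allow is 0.005. The ratio of miR-203a to miR-203b was lower at 60 hpf in 5 of 6 pairs of equal number (paired exact test, p = 0.125). Equal numbers did not pair the DMSO libraries of the 2 times (correlations -0.231, -0.005 and -0.027).

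**Figure D5:**
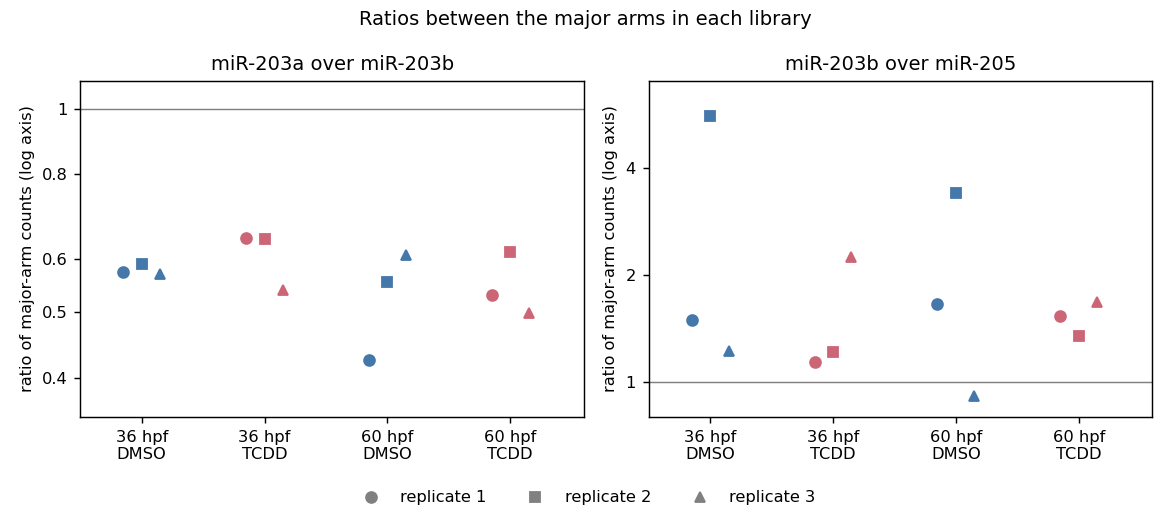
Ratio of the counts of 2 major arms in each library on log axes, miR-203a over miR-203b on the left and miR-203b over miR-205 on the right, with a line at 1 and 1 symbol per library. The left ratio stays between 0.425 and 0.644; the right one runs from 0.915 to 5.60, highest in replicate 2 of DMSO at each time.

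Across the 12 libraries the log2 levels of the miR-203 pair ran together, as a description, with a Pearson correlation of 0.891 for the major arms (0.936 over the 6 libraries of 36 hpf, 0.763 over those of 60 hpf) and of 0.974 for the minor arms (0.957 and 0.918). These points share library, depth and scaling, and reads shared between near-identical arms would raise the values. miR-205 did not run with miR-203b in the same way, with 0.123 over all libraries, 0.277 at 36 hpf and -0.451 at 60 hpf. The correlation of a major arm with its own minor arm was 0.792 for miR-203a, 0.666 for miR-203b and 0.509 for miR-205. Within 36 and 60 hpf it was 0.562 and 0.342 for miR-203a, 0.506 and 0.474 for miR-203b, and 0.731 and 0.027 for miR-205.

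Of the 222 other features with a mean of 100 CPM or more, those whose pattern over the 12 libraries was most like miR-203b were mir-203a (0.891), mir-219 (0.781), mir-101b (0.746), mir-133c (0.729) and mir-219* (0.722). Within the times some of these were uneven, for example 0.303 at 36 hpf and 0.916 at 60 hpf for mir-219. Others were more even, with 0.659 and 0.620 for mir-133c. Those most like miR-205 were mir-221 (0.765), mir-30e* (0.736), mir-130c* (0.654), mir-133b* (0.640) and mir-10b* (0.584). mir-221 (0.851 and 0.678), mir-130c* (0.716 and 0.816) and mir-133b* (0.806 and 0.216) kept a positive value at both times. In contrast, mir-30e* had 0.939 at 36 hpf and -0.118 at 60 hpf, and mir-10b* had 0.793 and -0.302.

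The miR-200 family, which marks epithelia and shares the ZEB targets with miR-205, was counted beside the members. Of its 12 tested arms, 0 were called by edgeR in either direction in any comparison. Of all 370 miRNAs edgeR called 66 (17.8%), 75 (20.3%) and 128 (34.6%) for time in DMSO, in TCDD and averaged. For TCDD it called 1 (0.27%) or fewer. At an unadjusted p under 0.05 there were 0 arms at 36 hpf and 1 at 60 hpf for TCDD, and 1 in DMSO and 0 in TCDD for time. Of all 370 miRNAs there were 10, 26, 115 and 131 in the same order. In the averaged comparisons there was 1 for time, among 178 of all 370 miRNAs, and there were 2 for TCDD, among 18 of 370. These 2 were mir-141 (-0.85, edgeR adjusted p = 0.639) and mir-200c (-0.99, edgeR adjusted p = 0.922). DESeq2 called 1 arm for time in DMSO, among 111 of 370 miRNAs (30%), and 0 arms in the other comparisons named here. Of all miRNAs it called 118 (31.9%) for time in TCDD, 182 (49.2%) for averaged time and 11 (2.97%) or fewer for TCDD. limma-voom called 0 arms, against 75 (20.3%), 80 (21.6%) and 131 (35.4%) of all miRNAs for time in DMSO, in TCDD and averaged. Whether the family falls below these shares was not tested. For TCDD the median log2 fold change of the 12 arms was -0.25 at 36 hpf and 0.31 at 60 hpf, where the median of all miRNAs was -0.01 and 0.04. For time it was -0.15 in DMSO and 0.15 in TCDD, where the median of all miRNAs was 0.04 and 0.13. The family's minor arms were rare, with means of 4.08 to 126 CPM. For TCDD at 60 hpf they had 0.88 (mir-200a*), 0.81 (mir-200b*), 0.68 (mir-141*), 0.71 (mir-429b*), 0.56 (mir-429*) and -0.41 (mir-200c*). Of the family's major arms, mir-200c was at -0.72 and mir-429b at 0.07 there. Its 4 most abundant arms averaged 4378 CPM (mir-200a), 3110 CPM (mir-200b), 2863 CPM (mir-141) and 2258 CPM (mir-429), against 35100 CPM for miR-203a, 39351 CPM for miR-205 and 62051 CPM for miR-203b. With TCDD these 4 had log2 fold changes of -0.44, -0.03, -0.73 and -0.74 at 36 hpf and of -0.49, -0.59, -0.96 and 0.65 at 60 hpf, each with an edgeR adjusted p of 0.531 or more.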

How the data were processed

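Small RNA libraries were made with the SREK kit and sequenced on a SOLiD V3 instrument, per the labels' protocols. The authors deposited raw counts, whole numbers, in a table for each library. The submitters' processing notes name edgeR, with no version. No source used here gives an aligner, miRNA release, genome build or counting rule. Features missing from a table were taken as 0. The tables held 699 miRNA rows and 1797 rows with Ensembl identifiers (1.2% to 5.35% of counts), which were left out. Copies of 1 mature name and arm were counted once, by the most abundant copy, which left 412 features; keeping unlike copies apart (464 features) is an alternative added after seeing the data, as are the averaged level comparisons, the block among TCDD libraries and the fit without both DMSO libraries numbered 2.

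Counts were analysed with edgeR 4.0.16 in R 4.3.3 (filterByExpr with a minimum of 10 and a total of 15, 370 features kept; TMM; 4 group means over 12 libraries; robust quasi-likelihood test; Benjamini-Hochberg over all features; call at 0.05). Arm ratios, log2 with a pseudocount of 0.5, were fitted with limma 3.58.1 over 172 hairpins. DESeq2 1.42.0 and limma-voom were alternatives. The edgeR and limma arm-ratio fits, but not DESeq2, limma-voom or the permutation tests, were run on simulated counts with set changes of 1 log2 unit or more. These were drawn independently for each library with the fitted TMM factors. Such counts cannot test the choice of scaling or a pairing of libraries. Named miRNAs were all member arms, the 5 most like miR-203b and miR-205, and the miR-200 family by counts, with its 4 most abundant arms by value. Members and lists were chosen with earlier results of these data known. Replicate libraries differed far beyond sampling (chi-square over its degrees of freedom 213 to 1752). Same-numbered TCDD libraries of the 2 times deviated together from their group means (correlations 0.252, 0.243 and 0.386), so a replicate block among them was fitted too. The numbers alone give this pairing. A pair unlike in number and treatment, replicate 2 of 36 hpf DMSO and replicate 1 of 60 hpf TCDD, reached 0.259. Intervals on shares cover counting error only.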

Additional observations from a re-analysis of the deposited data

How the results depend on the processing

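Tried as alternatives were scaling by RLE, by upper quartile and by total count, TMM factors without the members, no filter and a stricter one, DESeq2, limma-voom, a fit of only the groups compared, a replicate block, other ways of counting copies, other settings of the arm ratio and leaving out libraries. None of them called a member for TCDD, in the level or in the arm ratio. For TCDD the sign of several fitted values changed between settings, as given here. The miR-203 calls for time depended on scaling and tool. Below, time means 60 against 36 hpf, averaged means over both treatments or both times, and values are log2 fold changes of the level unless named as an arm ratio or a count of calls. Beyond what the construction of a setting shows, the cause of a change was not tested. Depth limits miR-205* most, which rested on 28 to 804 counts. Outside the TCDD pair of times, equal replicate numbers did not pair libraries (for 36 hpf DMSO and TCDD the correlations were -0.258, 0.026 and 0.110). With the replicate block over all libraries the counts of calls were 0 and 2 for TCDD at 36 and 60 hpf, and 54 and 72 for time in DMSO and TCDD. The block among TCDD libraries gave 83 calls for time in TCDD and changed no call of a member there. The replicate block ended 1 call of a member, miR-203b* for averaged time. Counting every hairpin copy, or all rows, lowered the share of the 6 arms in 60 hpf DMSO to 9.48% and 9.34%. In 60 hpf TCDD it fell to 10.8% and 10.6%. Shares at 36 hpf fell as well. With all rows counted, that of miR-203b was 5.43% in 36 hpf DMSO, against 7.02%, and 4.45% in 36 hpf TCDD, against 5.74%.

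RLE scaling gave miR-203a* at -0.87 (adjusted p = 0.0422) for time in TCDD and miR-203a at -0.57 (adjusted p = 0.0389) for averaged time. RLE scaling also gave miR-205* at 0.00023 for averaged TCDD. Upper quartile scaling gave miR-203a* at 0.071, miR-203b* at 0.0021 for TCDD at 36 hpf and miR-203a at 0.24, miR-203a* at 0.22, miR-203b at 0.14, miR-203b* at 0.19 for TCDD at 60 hpf. Upper quartile scaling also gave miR-203a* at -1.10 (adjusted p = 0.0452) for time in DMSO and miR-203a* at 0.15, miR-205 at 0.16 for the difference of the TCDD effects. Upper quartile scaling further gave miR-203a at -0.74 (adjusted p = 0.0288), miR-205* at -0.10 for averaged time and miR-203a at 0.063, miR-203a* at 0.15, miR-203b* at 0.10, miR-205* at 0.090 for averaged TCDD. Total count scaling gave the count of calls at 2, miR-203a at 0.22, miR-203a* at 0.21, miR-203b at 0.14, miR-203b* at 0.19 for TCDD at 60 hpf and miR-203b at 0.13 for time in TCDD. Total count scaling also gave miR-203a* at 0.27, miR-205 at 0.25 for the difference of the TCDD effects and miR-203a* at -0.52 (adjusted p = 0.0517), miR-203b* at -0.30 (adjusted p = 0.252) for averaged time. Total count scaling further gave miR-203a at 0.0094, miR-203a* at 0.074, miR-203b* at 0.029, miR-205* at 0.10 for averaged TCDD. TMM factors without the members gave miR-203a* at 0.015 for the difference of the TCDD effects. The fit with no filter gave miR-203b* at -0.56 (adjusted p = 0.0523) for averaged time. The stricter filter gave miR-203a at -0.52 (adjusted p = 0.0493) for averaged time. DESeq2 gave the count of calls at 11 for TCDD at 60 hpf and the count of calls at 111, miR-203a at -0.66 (adjusted p = 0.0361), miR-203a* at -0.85 (adjusted p = 0.00187), miR-203b* at -0.65 (adjusted p = 0.0138) for time in DMSO. DESeq2 also gave the count of calls at 118, miR-203a* at -0.87 (adjusted p = 0.00139), miR-203b* at -0.62 (adjusted p = 0.0176) for time in TCDD and the count of calls at 4 for the difference of the TCDD effects. DESeq2 further gave miR-203a at -0.57 (adjusted p = 0.00443), miR-203b at -0.42 (adjusted p = 0.0499) for averaged time and the count of calls at 4, miR-205* at 0.0021 for averaged TCDD. limma-voom gave miR-203a* at 0.034 for the difference of the TCDD effects and miR-203a at -0.53 (adjusted p = 0.0453) for averaged time. A fit of only the groups compared gave miR-203a* at 0.011 for TCDD at 36 hpf and miR-203a* at -0.82 (adjusted p = 0.0483) for time in DMSO. The replicate block gave the count of calls at 2 for TCDD at 60 hpf and miR-203a* at 0.015 for the difference of the TCDD effects. The replicate block also gave miR-203b* at -0.57 (adjusted p = 0.0682) for averaged time and the count of calls at 0 for averaged TCDD. The replicate block among TCDD libraries gave miR-205 at -0.018 for TCDD at 36 hpf and the count of calls at 3 for TCDD at 60 hpf. The replicate block among TCDD libraries also gave miR-203a* at 0.043, miR-205 at 0.072 for the difference of the TCDD effects and miR-203b* at -0.55 (adjusted p = 0.0528) for averaged time. The replicate block among TCDD libraries further gave the count of calls at 4 for averaged TCDD. Summing copies gave miR-203a* at 0.023, miR-205 at 0.0058 for the difference of the TCDD effects. Library sizes over all rows gave miR-203a* at 0.0019 for TCDD at 36 hpf and miR-203a* at -0.88 (adjusted p = 0.0416) for time in TCDD. Library sizes over all rows also gave miR-203a at -0.58 (adjusted p = 0.0366) for averaged time and miR-205* at 0.020 for averaged TCDD. Leaving out both TCDD libraries numbered 3 gave miR-203a* at 0.19, miR-203b* at 0.11 for TCDD at 36 hpf and miR-203a* at -0.84 (adjusted p = 0.0425) for time in DMSO. Leaving out both TCDD libraries numbered 3 also gave miR-203a* at -1.11 (adjusted p = 0.0299) for time in TCDD and the count of calls at 2, miR-203b* at -0.21 for the difference of the TCDD effects. Leaving out both TCDD libraries numbered 3 further gave miR-203a at -0.64 (adjusted p = 0.0437) for averaged time and miR-203a* at 0.058, miR-205* at 0.25 for averaged TCDD. Leaving out both TCDD libraries numbered 3 lastly gave miR-203b arm ratio at 0.00019 for TCDD at 60 hpf. Keeping unlike copies apart gave miR-205 at -0.024 for TCDD at 60 hpf and miR-203a* at -0.86 (adjusted p = 0.0474) for time in TCDD. Keeping unlike copies apart also gave miR-203b* at -0.057 for the difference of the TCDD effects and miR-203a at -0.54 (adjusted p = 0.0448) for averaged time. Leaving out both DMSO libraries numbered 2 gave miR-205 at -0.40 for TCDD at 36 hpf and the count of calls at 2, miR-203a at 0.16, miR-203b at 0.00099, miR-205 at -0.24 for TCDD at 60 hpf. Leaving out both DMSO libraries numbered 2 also gave the count of calls at 41 for time in DMSO and miR-203a* at 0.025, miR-205 at 0.15 for the difference of the TCDD effects. Leaving out both DMSO libraries numbered 2 further gave miR-203b* at -0.60 (adjusted p = 0.103) for averaged time and the count of calls at 0, miR-205 at -0.32, miR-203a arm ratio at -0.094, miR-203b arm ratio at -0.063 for averaged TCDD.

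Leaving out 1 library at a time changed the sign or the call of some values, as log2 fold changes or as counts of calls. TCDD at 36 hpf had ranges of -0.35 to 0.12 for miR-203a*, -0.38 to 0.058 for miR-203b*, -0.39 to 0.82 for miR-205, -1.14 to 0.049 for miR-205*. TCDD at 36 hpf also had ranges of -0.10 to 0.26 for miR-203a arm ratio, -0.087 to 0.26 for miR-203b arm ratio. TCDD at 60 hpf had ranges of 0 to 1 for the count of calls, -0.18 to 0.13 for miR-203a, -0.12 to 0.11 for miR-203a*, -0.35 to 0.045 for miR-203b. TCDD at 60 hpf also had ranges of -0.14 to 0.057 for miR-203b*, -0.27 to 0.25 for miR-205, -0.24 to 0.089 for miR-203a arm ratio, -0.16 to 0.24 for miR-203b arm ratio. TCDD at 60 hpf also had ranges of -0.17 to 0.59 for miR-205 arm ratio. Time in DMSO had ranges of -0.92 to -0.70 for miR-203a*, -0.82 to 0.26 for miR-205, -0.70 to 0.15 for miR-205*, -0.31 to 0.020 for miR-203a arm ratio. Time in DMSO also had ranges of -0.36 to 0.048 for miR-203b arm ratio, -0.34 to 0.32 for miR-205 arm ratio. Time in TCDD had ranges of -0.97 to -0.50 for miR-203a*. Difference of the TCDD effects had ranges of 0 to 2 for the count of calls, -0.015 to 0.34 for miR-203a, -0.18 to 0.29 for miR-203a*, -0.093 to 0.34 for miR-203b. Difference of the TCDD effects also had ranges of -0.11 to 0.30 for miR-203b*, -0.74 to 0.42 for miR-205. Averaged time had ranges of -0.59 to -0.46 for miR-203a, -0.67 to -0.44 for miR-203b*, -0.065 to 0.46 for miR-205*. Averaged TCDD had ranges of 0 to 2 for the count of calls, -0.21 to 0.058 for miR-203a*, -0.23 to 0.0042 for miR-203b*, -0.18 to 0.44 for miR-205. Averaged TCDD also had ranges of -0.34 to 0.27 for miR-205*, -0.073 to 0.11 for miR-203a arm ratio, -0.044 to 0.19 for miR-203b arm ratio. TCDD against DMSO within time had ranges of -0.0079 to 0.12 for miR-203a over miR-203b. 60 against 36 hpf within treatment had ranges of -0.38 to 0.20 for miR-203b over miR-205.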
